A study of Sus scrofa with 3 samples.

Results

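The transcripts described here are 8 candidate long intergenic noncoding RNAs (lincRNAs) of pig chromosome 1. Their assembly identifiers are closely numbered, from TCONS_00002643 to TCONS_00002687. A score of coding potential was not among the values used here. The 8 transcripts were chosen by their measured values, with a high level in RNA precipitated by an EZH2 antibody and a low level in the lincRNAseq library. They are 8 of the 1647 transcripts on chromosome 1 and of the 14580 transcripts in all. The EZH2 and lincRNAseq values given below are therefore a description of what was selected on, and only the IgG values played no part in the choice.

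Longissimus dorsi muscle of Large White female pigs aged 1 month was studied with 3 libraries. The study's results speak of the muscle of 1 pig, with lincRNAseq made from the sample used for RIP-Seq. Its methods speak of pigs, in the plural, for RIP-Seq, so the number of animals behind the precipitates is not certain. RNA immunoprecipitated with the EZH2 antibody gave the EZH2 RIP-Seq library, the same procedure with IgG gave the control library, and the lincRNAseq library measured the RNA of the muscle without precipitation. Each condition had 1 library, so no difference below has a replicate check and no p-value is given. All 3 libraries came from whole muscle tissue, in which fewer cells that carry a transcript and less of it per cell cannot be told apart.

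EZH2 carries the histone methyltransferase activity of the Polycomb complex PRC2, which marks histone H3 at genes that are kept silent. In skeletal muscle, EZH2 is known for holding back muscle genes in undifferentiated myoblasts. RNA immunoprecipitation followed by sequencing (RIP-Seq) measures which RNAs come down with a protein, directly or through other molecules, and the IgG precipitate gives the background of the procedure. LincRNAs are long RNAs from between the protein-coding genes that are not known to encode proteins. No function is given for any of the 8 transcripts, which carry assembly identifiers in place of gene names.

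Levels are the authors' FPKM values, in which the number of fragments is scaled by transcript length and by sequencing depth. The scaling is meant to make transcripts of unlike length comparable. TCONS_00002681 had the highest EZH2 level of the members, at 260.0 FPKM with EZH2, 0 with IgG and 1.32 by lincRNAseq. TCONS_00002687 followed at 254 FPKM with EZH2, 0 with IgG and 7.01 by lincRNAseq. TCONS_00002644 was at 210.4 FPKM with EZH2, 0 with IgG and 2.58 by lincRNAseq. These were the 3 highest members in the EZH2 precipitate, and none of them was detected with IgG.

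TCONS_00002645 was at 160.0 FPKM with EZH2, 0 with IgG and 4.24 by lincRNAseq. TCONS_00002654 was at 138 FPKM with EZH2, 0 with IgG and 2.42 by lincRNAseq. Both lay near the members' median EZH2 level of 149 FPKM. TCONS_00002643 was lower in the precipitate, at 80.4 FPKM with EZH2, 0 with IgG and 2.93 by lincRNAseq. TCONS_00002671 was the lowest, at 70.7 FPKM with EZH2, 0 with IgG and 2.01 by lincRNAseq.

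TCONS_00002672 stood apart from the other members. It was at 96.1 FPKM with EZH2, 34.6 with IgG and 10.4 by lincRNAseq. It was the single member with an IgG value above 0, and it also had the highest lincRNAseq level of the 8. The members thus spanned 3.68-fold in the EZH2 library and 7.83-fold in the lincRNAseq library, and the order of their levels differed between these libraries.

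**Figure D1:**
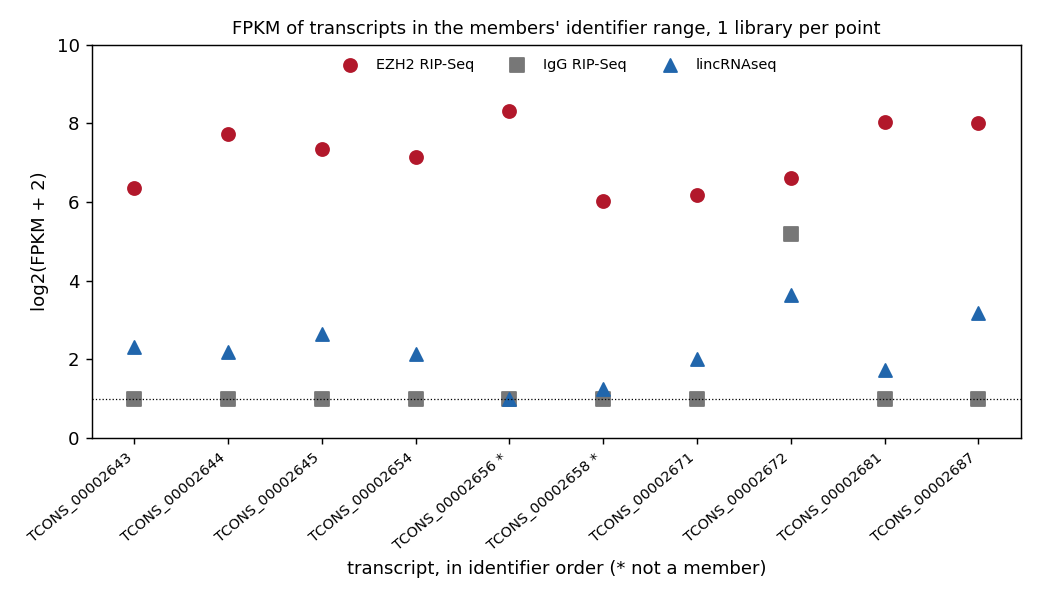
Levels of the 8 members and of the other 2 chromosome 1 transcripts numbered within their range (marked with an asterisk), as log2(FPKM + 2), in each of the 3 libraries. Each point is 1 library and the dotted line marks an FPKM of 0; the IgG points lie on that line for all but TCONS_00002672.

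The ratio of the EZH2 to the lincRNAseq level was computed as log2[(EZH2_FPKM + 2)/(lincRNA_FPKM + 2)] from the levels in the EZH2 and lincRNAseq libraries, and a ratio of at least 1 was counted as past the fold. The study's methods use this form for transcripts with an IgG level of 0. They first apply filters on the lincRNAseq level, the EZH2 level and a score of coding potential. Here the ratio was computed for all transcripts without a filter. That included TCONS_00002672, for which the methods would take the ratio to IgG. All 8 members passed, as did 20.2% of all 14580 transcripts (2945) and 22.9% of the 1637 transcripts on the rest of chromosome 1 (375). Because the members were picked for this contrast, nothing is read from their count. The ratio ranged from 2.99 for TCONS_00002672 to 6.30 for TCONS_00002681. The median of the 8 was 4.76, and the median over all transcripts was -0.08.

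Between these ends, TCONS_00002644 had a log2 ratio of 5.54, TCONS_00002654 of 4.99, TCONS_00002687 of 4.83 and TCONS_00002645 of 4.70. The ratios of TCONS_00002671 and TCONS_00002643 were 4.18 and 4.06. These values depend on the pseudocount: with 0.1 in place of 2 the range was 3.20 to 7.51, with the same members at its ends, and TCONS_00002645 (5.20) came above TCONS_00002687 (5.16). The member with the highest lincRNAseq level had the lowest ratio, and the member with the lowest lincRNAseq level had the highest. The lincRNAseq level is the denominator of the ratio, and the 2 orders did not match between the ends. TCONS_00002687, at 7.01 FPKM by lincRNAseq, had a ratio of 4.83, above the 4.18 of TCONS_00002671, at 2.01 FPKM. Without a pseudocount, the EZH2 level of TCONS_00002681 was 196-fold its lincRNAseq level and that of TCONS_00002672 was 9.27-fold. No common ratio was found between the values of a fragment in these libraries, as given below with the fragment numbers. Whether the folds of different members are on the same scale is therefore not known.

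The low lincRNAseq levels of the members were low beside their EZH2 levels, but not beside other chromosome 1 transcripts. The members' lincRNAseq levels ran from 1.32 to 10.4 FPKM with a median of 2.76, whereas the rest of chromosome 1 had a median of 0.390 and an upper quartile of 0.731. Of those 1637 transcripts, 267 (16.3%) reached the lowest lincRNAseq level of a member. In the order of all 14580 lincRNAseq values, the members held ranks from 914 for TCONS_00002672 to 3050 for TCONS_00002681. Their EZH2 ranks ran from 87 for TCONS_00002681 to 306 for TCONS_00002671. Summed, the members made up 0.723% of all FPKM with EZH2, 0.0895% with IgG and 0.0139% by lincRNAseq. The IgG share came from TCONS_00002672 alone. The EZH2 and lincRNAseq shares rest on values used in the choice, so no enrichment is read from the 3 shares.

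**Figure D2:**
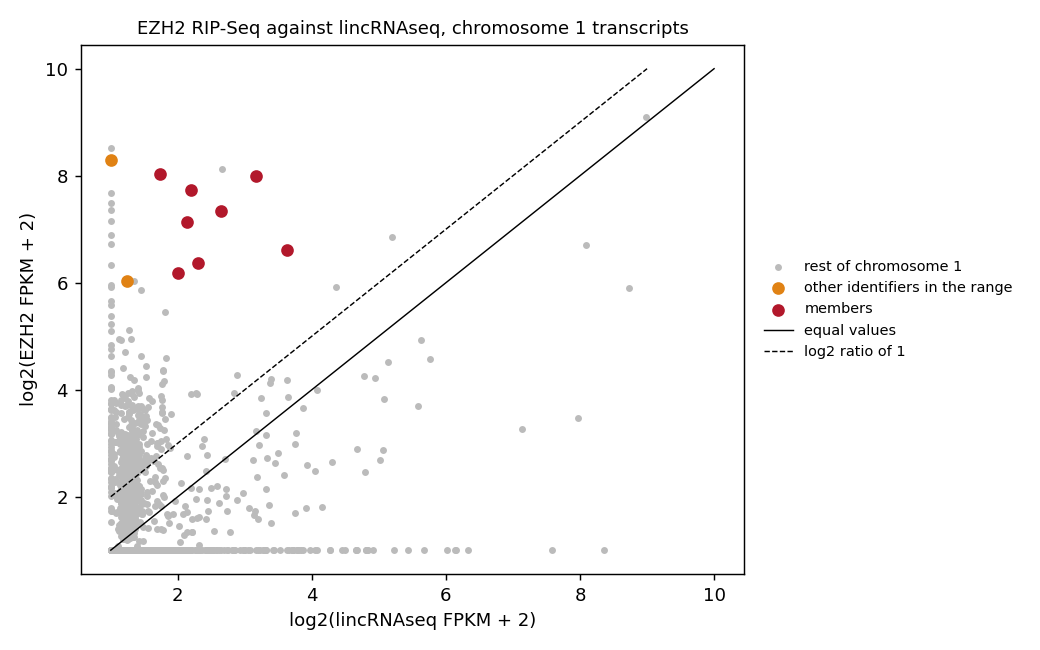
EZH2 RIP-Seq level against lincRNAseq level, both as log2(FPKM + 2), for the 1647 transcripts of chromosome 1, each point 1 transcript. The solid line marks equal values and the dashed line a log2 ratio of 1; the members lie above the dashed line, with log2 ratios from 2.99 to 6.30, in an area where the rest of chromosome 1 has few points.

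The numbers from TCONS_00002643 to TCONS_00002687 held 10 deposited transcripts on chromosome 1, so the members were all but 2 of them. The other 2 fell just outside the choice. TCONS_00002656 had 313 FPKM in the EZH2 library, above every member, and was listed at 0 in both the IgG and the lincRNAseq libraries. TCONS_00002658 was at 63.6 FPKM with EZH2, a little under the 70.7 of the lowest member, at 0 with IgG and at 0.367 by lincRNAseq. Both differed from the members in a lincRNAseq level below 1.

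Detection, meaning an FPKM above 0, was compared between the members, the other 2 transcripts in the number range and the 1637 transcripts on the rest of chromosome 1. In the EZH2 library, 8 of 8 members and 2 of 2 others were detected, beside 751 of 1637 (45.9%; Wilson 95% interval 43.5% to 48.3%) on the rest of the chromosome. In the lincRNAseq library, 8 of 8 members and 1 of 2 others were detected, beside 1421 of 1637 (86.8%; 85.1% to 88.4%). In both of these libraries detection of the members followed from how they were chosen. In the IgG library, 1 of 8 members (12.5%; 2.24% to 47.1%) and 0 of 2 others were detected, beside 137 of 1637 (8.37%; 7.12% to 9.81%). The members' IgG share was not distinguishable from that of the rest of chromosome 1 at this number of transcripts. These intervals cover counting over transcripts only.

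High EZH2 levels were rare on the rest of the chromosome. At 70 FPKM or more, 9 of the 10 transcripts in the number range (90.0%; 59.6% to 98.2%) were counted, beside 13 of 1637 elsewhere (0.794%; 0.465% to 1.35%). The 9 were the 8 members and TCONS_00002656, and the contrast follows from the choice of the range by its EZH2 values and of a limit just under the lowest member. At 100 FPKM or more the counts were 6 in the range and 12 elsewhere, and at 50 or more they were 10 and 19. The stretch did not end at the last member. The next 9 chromosome 1 identifiers, from TCONS_00002703 to TCONS_00002826, all had EZH2 levels of at least 56.5 FPKM, with a median of 178 and a highest value of 363, and 8 of them reached 70. The 10 identifiers after these had EZH2 levels from 0 to 11.0 FPKM with a median of 1.42.

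The members thus lay in a longer run of 20 consecutive chromosome 1 identifiers with EZH2 levels above 50 FPKM, a limit set after the values were seen. The run opened with TCONS_00002498, the single identifier on the chromosome numbered below the members, which was at 548 FPKM with EZH2, 0 with IgG and 506 by lincRNAseq. The members and the 9 identifiers after their range differed in the lincRNAseq library. All 8 members had lincRNAseq levels above 1 FPKM, whereas 7 of the 9 later transcripts were listed at 0 there and 1 was above 1. That 1 was TCONS_00002788, named after its values were seen, at 277 FPKM with EZH2, 381 with IgG and 4.34 by lincRNAseq. The choice of the members rested in part on the lincRNAseq values, so this difference is a description. In the IgG library, 3 of the 9 later transcripts were detected, beside 1 of 8 members.

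**Figure D3:**
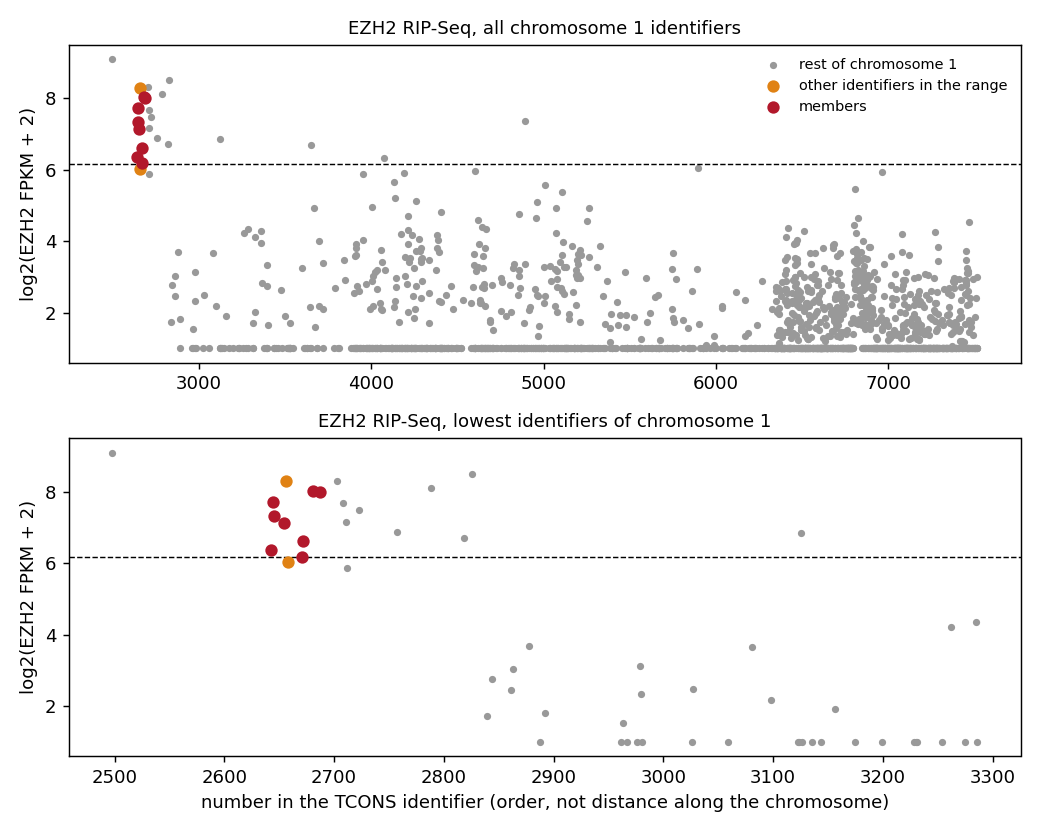
EZH2 RIP-Seq level, as log2(FPKM + 2), of each chromosome 1 transcript by the number in its identifier, for all identifiers (top) and the lowest ones (bottom), each point 1 transcript. The dashed line marks 70 FPKM; 9 of the 10 transcripts in the members' number range and 13 of the other 1637 lie on or above it, and most of the 13 follow directly after the range.

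Nearness here is nearness of identifier numbers. The deposited tables give a chromosome and an identifier for each transcript but no start, end or strand. In the study's own annotation of its lincRNAs, the members listed there lie at several well separated places on chromosome 1, so near identifiers did not mean near positions for those members. Positions of members not listed there were not analysed here.

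Runs of high EZH2 levels were found on most chromosomes, and the IgG and lincRNAseq levels within them were not compared. For each of the 16 chromosomes with at least 5 transcripts at 70 FPKM or more in the EZH2 library, the shortest stretch of consecutive deposited identifiers that held 50% or more of them was taken. On chromosome 1, 11 of the 22 high transcripts lay in 12 consecutive identifiers, which is 0.729% of the identifiers on the chromosome. On chromosome 13 the stretch held 9 high transcripts in 9 identifiers, on chromosome 14 it held 11 in 11, and on chromosome 15 it held 21 in 22. Looser stretches held 17 in 20 on chromosome 2 and 16 in 21 on the X chromosome, and a short stretch on chromosome 12 held 3 in 3. On 14 of the 15 other chromosomes the stretch was no longer than 2 times the number of high transcripts in it. The exception was chromosome 17, where 3 high transcripts were spread over 71 identifiers.

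The IgG library had not been used to choose the members, and it was set beside transcripts of like EZH2 level. Of the 212 other transcripts with EZH2 levels between those of the lowest and the highest member, 46 (21.7%; 16.7% to 27.7%) had an IgG level above 0. The share among the members was 1 of 8 (12.5%; 2.24% to 47.1%), and its interval included the share of the 212. At this number of members, their IgG detection was not distinguishable from that of other transcripts of their EZH2 level. The lincRNAseq library listed 97 of the 212 (45.8%) at 0 and none of the 8. The lincRNAseq values had a part in the choice of the members, so this difference is a description.

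On the log2 scale with the pseudocount of 2, all 8 members had an EZH2 to IgG ratio of at least 1, as did 25.8% of all 14580 transcripts (3767) and 27.2% of the 1637 on the rest of chromosome 1 (445). The members had been chosen for high EZH2 values, which enter this ratio too, so nothing is read from that count. For TCONS_00002672 the ratio was 1.42, and its EZH2 level was 2.77-fold its IgG level, a fold whose counting interval is given with the fragment numbers. The other 7 members were listed at 0 in the IgG library, where the ratio depends on the pseudocount, so no fold is given from it.

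How much an IgG value of 0 says depends on the depth of that library. FPKM values of whole fragments on transcripts of 1 length are whole multiples of a step, the value of 1 fragment. Among the 815 transcripts detected in both precipitates, a ratio of the IgG step to the EZH2 step between 1 and 8 was sought at which most EZH2 levels were whole numbers of steps, and the best was 5.05. At that ratio 412 of the 725 transcripts with 1 to 30 EZH2 steps per IgG value came out whole within 0.1%. Ratios above 8 were outside the search, and at 2 times 5.05, which was counted in addition, 360 transcripts came out at even and 99 at odd numbers of EZH2 steps. The larger ratio was not excluded. At either ratio an IgG fragment added several times as much FPKM as an EZH2 fragment on the same transcript, so low levels were harder to detect with IgG.

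The number of fragments behind a member was sought in transcripts whose EZH2 and lincRNAseq values both stood to the member's in exact ratios of small whole numbers, a search added after the values were seen. Where such a partner has the member's length, which the deposited tables do not give, the member's fragment numbers are whole multiples of the smallest numbers that the ratios allow. TCONS_00002681 came to a smallest number of 24 EZH2 and 2 lincRNAseq fragments through 2 such partners. TCONS_00002645 came to 19 EZH2 and 10 lincRNAseq fragments through 3 partners, and TCONS_00002671 to 19 and 16 through 1 partner. These 3 had the highest smallest numbers of EZH2 fragments among the 6 members for which the search gave any.

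TCONS_00002672 came to 14 EZH2 and 17 lincRNAseq fragments through 2 partners, and at the ratio of 5.05 its IgG level of 34.6 FPKM stood for 1 IgG fragment. If the numbers were 14 and 1, the 2.77-fold difference had an exact (Clopper-Pearson) 95% counting interval from 0.422 to 117, given as a description because the EZH2 level chose this member too. TCONS_00002687 came to smallest numbers of 11 EZH2 fragments and 1 lincRNAseq fragment, and TCONS_00002643 to 6 and 10, through 1 partner each. The numbers of these members could not both hold if the EZH2 and lincRNAseq steps stood in 1 ratio for all transcripts. For TCONS_00002644 the partner TCONS_00037114 on chromosome 2 had the same EZH2 level of 210.4 FPKM and a lincRNAseq level of 1.29, with the member's exactly 2 times as high, which leaves the number of EZH2 fragments unknown. TCONS_00002654 had no partner.

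The smallest numbers are limits and not a joint estimate. They put the EZH2 step at 3.30 times the lincRNAseq step for TCONS_00002687 and at 45.7 times for TCONS_00002643, with the other 4 members between. No common ratio was found between these libraries: at the best ratio from 1 to 60, 107 of 4048 transcripts (2.64%) came out whole. The numbers could therefore not be checked against 1 ratio. If 1 ratio held for all transcripts, at most 1 of these 6 pairs of smallest numbers could be the real one. The other members would then lie at larger multiples. Whether 1 ratio held is not known, and neither is the number of members at larger multiples. Each member's floor was taken alone, as the IgG level of 3 fragments if its smallest number and the ratio of 5.05 held. The lowest was 56.4 FPKM for TCONS_00002671 and the highest 350 FPKM for TCONS_00002687, with 164 FPKM for TCONS_00002681. The floors of different members need not hold together. These floors would be 2 times as high at the larger ratio and lower in proportion at larger multiples, and they cover counting error only. TCONS_00002644 and TCONS_00002654 have no such floor. Because the EZH2 levels chose the members, no difference from IgG is read for any of the 7 members listed at 0.

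Transcripts with like values were present on other chromosomes. Within the members' own span of EZH2 and lincRNAseq levels lay 48 other transcripts, of which 0 were on chromosome 1. The members had been chosen on chromosome 1 by these same values, so nothing is read from the 0. Of the 41 of them on assembled chromosomes, spread over 14 chromosomes, 8 were on the X chromosome. An IgG level above 0 was found for 12 of the 48 (25.0%; 14.9% to 38.8%).

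The 5 transcripts undetected with IgG that lay nearest to the members' median profile were taken by Euclidean distance of log2(FPKM + 2) over the 3 libraries. The nearest was TCONS_00049422 on chromosome 5, at a distance of 0.13, with 148 FPKM in the EZH2 library and 2.34 in the lincRNAseq library. TCONS_00078159 on the X chromosome followed at 0.16, with 158 and 2.35 FPKM in these libraries, and TCONS_00028356 on chromosome 16 at 0.19, with 148 and 3.41 FPKM. TCONS_00078151 on the X chromosome lay at 0.37 with 184 and 2.09 FPKM, and TCONS_00021466 on chromosome 14 at 0.40 with 112 and 2.84 FPKM. None of the 5 was on chromosome 1, where the members had been chosen by these values, so nothing is read from that.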

How the data were processed

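The authors aligned the reads to the pig genome (Sus scrofa build 10.2) with TopHat2, assembled transcripts with Cufflinks and computed FPKM with Cuffdiff; the tool versions are not given in the sources used here. The deposited FPKM values of the 3 libraries were used as given. Each table had 26521 rows for 14580 transcripts, of which 11941 were listed on 2 identical rows and counted once. Depth is known only through the fragment steps. Ratios used a pseudocount of 2, intervals of shares are Wilson 95% intervals, the interval of the fold of TCONS_00002672 is Clopper-Pearson, and floors are 3 fragments; step ratios of IgG to EZH2 were searched from 1 to 8. Exact ratios were accepted within a relative 6e-06, with numerators up to 60 and denominators up to 24. The step search was tested on simulated data whose settings were not matched to the members' values, so that test does not secure their fragment numbers. Exact ratios can also arise between transcripts of unlike length, so a smallest fragment number from 1 partner is the least secure. Stretches were sought on assembled chromosomes only. The members and lists were chosen with earlier results of these data known. Named transcripts were the 8 members, up to 5 others in their number range with the highest EZH2_FPKM (2 existed), and the 5 nearest to the members' median profile among transcripts with IgG_FPKM at 0; partners, transcripts that mark the ends of a run and others said to be so were chosen after their values were seen. Values were computed in Python (version 3.11.15) with pandas 2.3.3 and numpy 2.4.6, intervals came from scipy 1.17.1, and plots from matplotlib 3.10.9.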

Additional observations from a re-analysis of the deposited data

How the results depend on the processing

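No paired analysis was possible because the EZH2, IgG and lincRNAseq conditions had 1 library each. The number of members past the fold stayed at 8 with pseudocounts of 1 and 0.1 for both ratios and with a limit of 2 for the ratio to lincRNAseq. The ratios themselves rose as the pseudocount fell. With 0.1 they ran from 3.20 to 7.51 for EZH2 to lincRNAseq. For EZH2 to IgG they ran from 1.42 to 7.03 with the main pseudocount and from 1.47 to 11.34 with 0.1. For members listed at 0 with IgG this ratio depends on the pseudocount, so its upper ends are not folds. The share of all transcripts past the fold of EZH2 to lincRNAseq, 20.2%, became 25.2% with a pseudocount of 1, 32.0% with 0.1, 12.2% among transcripts with lincRNA_FPKM above 1 and 8.83% with a limit of 2; apart from the looser or stricter rule itself, the cause was not tested. With detection set above 1 FPKM, the share of the rest of chromosome 1 fell to 39.0% in the EZH2 library and 19.2% in the lincRNAseq library, and 0 of the other 2 transcripts in the range were detected by lincRNAseq. With each row counted, transcripts on 2 rows count 2 times: the members gave 16 detected rows with EZH2, 2 with IgG and 16 with lincRNAseq, and the other 2 transcripts gave 4 with EZH2 and 2 with lincRNAseq. The search for shared exact values found, for 1 member (TCONS_00002644), a partner with a whole multiple in the other library, which gave no number of EZH2 fragments, and the exact-ratio search, chosen after seeing the data, found partners for 7; it admits more partners by its construction. The count of transcripts with high EZH2 levels in the number range, 9 at 70 FPKM, was 10 at 50 FPKM, 6 at 100 FPKM and 13 with the range widened, and that on the rest of chromosome 1, 13, became 19, 12 and 9. In all, 45 of 71 alternative values moved, counts by over 1.5 times, shares beyond their 95% interval and ratios by any amount, and 0 changed sign. The number of fragments is not known for any member, and this limits the comparison with IgG.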

Other observations

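All 8 members were listed on 2 identical rows in each table, as were 85.0% of the transcripts on the rest of chromosome 1. All 19 identifiers from TCONS_00002643 to TCONS_00002826 were on 2 rows, and the 10 chromosome 1 identifiers after these were all on 1 row. The meaning of the second row is not given in the sources used here, and its part in the run was not tested. TCONS_00002498, the identifier before them, was on 1 row. Beyond these, 4 chromosome 1 transcripts reached 70 FPKM in the EZH2 library. TCONS_00003125 and TCONS_00003649 were also high in the lincRNAseq library, at 34.8 and 272 FPKM, and TCONS_00004076 and TCONS_00004890 were listed at 0 there. TCONS_00004890 was at 162 FPKM with EZH2 and 148 with IgG.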
